A study of Mus musculus with 9 samples.

Results

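The replication-dependent histone genes are the mouse genes of the histone clusters, which encode the linker histone H1 and the core histones H2A, H2B, H3 and H4. A gene was counted as a member when its current NCBI symbol was H1f1 to H1f6, or began with H2ac, H2bc, H3c or H4c and a number, or when its older name began with Hist1h, Hist2h, Hist3h or Hist4. The rule found 60 of the 20076 genes with a ratio in at least 1 table. Of these, 55 were found by current symbol and 5 by older name only (H2aw, H2af-ps2, H2bu1-ps, H2bu2 and H4f16). There were 5 H1, 18 H2A, 16 H2B, 9 H3 and 12 H4 members, and 3 of the 60 are annotated as pseudogenes (H2ac14, H2af-ps2 and H2bu1-ps). The RefSeq annotation holds 71 genes that meet the rule, and the other 11 were found in neither of the authors' deposited tables. The rule uses names, but the family was selected on its deposited ratios and scores in both tables, which were known beforehand, so all values below are descriptions.

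The libraries came from cultured mouse brain astrocytes labelled with the genotype Ink4a-/-, a deletion in a tumour suppressor locus that restrains the cell cycle, which the labels give to the control cells too. One group had been transfected with pcDNA HA-JICD1 puro, a vector for the tagged intracellular part of the Notch ligand Jagged1. Another had received pcDNA NICD puro, a vector for the intracellular part of the receptor Notch1, and the control group had received pcDNA puro, the empty vector. Each group had 3 RNA libraries. The labels give neither the promoter of the constructs, nor a time after transfection, nor whether the 3 libraries of a group came from separate cultures. They also name no step that selects polyadenylated RNA.

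Most mRNAs end in a poly(A) tail, but the mRNAs of these genes typically end just after a short stem-loop. The stem-loop is bound by the stem-loop binding protein Slbp, and the RNA is cut behind it by a complex that includes the U7 snRNP. Transcription is driven in S phase by the coactivator Npat, which gathers on the histone clusters, and the mRNAs are destroyed when DNA replication ends. The genes have almost no introns, and many lie in head-to-head pairs of an H2A and an H2B gene. Members of a class encode nearly the same protein, so short reads can match several of them. Polyadenylated transcripts that run past the stem-loop are also known from some of these genes, in cells that have left the cell cycle among others.

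The stem-loop is what sets these mRNAs apart, and its letters were found in the annotated transcripts. The letters searched were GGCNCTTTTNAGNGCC, on the transcript strand, in GENCODE vM21 transcripts of GRCm38. They occurred in the longest transcript of 35 of the 60 members (58.3%), and in a transcript of 45 of 21901 protein-coding genes (0.205%), which include members. The 35 were 3 H1, 9 H2A, 9 H2B, 6 H3 and 8 H4 members. The form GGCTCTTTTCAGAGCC was held by 21 members, none of them H4, and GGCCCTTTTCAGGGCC by 6, all H4. The form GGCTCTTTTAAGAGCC was held by 2 H2B and 3 H3 members, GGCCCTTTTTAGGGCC by 2 H4 members and GGCTCTTTTTAGAGCC by H2ac20. The lines below show at least 1 member of each class and each of the 5 forms, written as DNA from 5′ to 3′ with the stem-loop in capitals and 5 bases on each side.
H1f2: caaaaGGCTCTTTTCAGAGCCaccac
H2ac8: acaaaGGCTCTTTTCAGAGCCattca
H2ac20: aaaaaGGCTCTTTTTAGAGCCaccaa
H2bc3: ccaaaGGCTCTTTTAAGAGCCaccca
H2bc8: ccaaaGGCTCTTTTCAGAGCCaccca
H3c7: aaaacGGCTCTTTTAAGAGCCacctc
H4c9: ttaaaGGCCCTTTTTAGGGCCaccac
H4c3: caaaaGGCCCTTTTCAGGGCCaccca
In H1f2 the annotated transcript went on for 840 bases past the stem-loop and in H4c9 for 330 bases, against 23 bases in H2bc3 and 57 in H2ac20. A transcript model without these letters says only that they are absent from that model.

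The promoters carried letters known from histone genes. RefSeq windows of 300 bases (250 before to 50 after the gene start, GRCm38.p6) were matched for 52 of the 60 members and set beside all 32851 windows, on both strands. CCAAT, the site of the factor NF-Y, was in 44 of 52 member windows (84.6%) and in 37.4% of all windows. It was in every matched H1, H2A, H2B and H3 window and in 3 of 11 H4 windows. TATAAA was in 32 member windows (61.5%) and in 13.6% of all windows. The H1 box AAACACA was in 4 of 5 H1 windows and in 7.18% of all windows. The octamer ATTTGCAT, a site of Oct-1, was in 7 H2A and 5 H2B windows and in no window of another class, against 1.74% of all windows. The lines below show the 250 bases before the start of H1f2 (chr13:23738557-23738806, plus strand) and of H4c9 (chr13:22041363-22041612, minus strand), both members with a high score in the JICD1 table. The last line is the stretch between the starts of the head-to-head genes H2ac8 and H2bc8 (chr13:23571221-23571399, plus strand). Capitals mark CCAAT or its reverse ATTGG, as well as TATAAA, the H1 box and the octamer.
H1f2: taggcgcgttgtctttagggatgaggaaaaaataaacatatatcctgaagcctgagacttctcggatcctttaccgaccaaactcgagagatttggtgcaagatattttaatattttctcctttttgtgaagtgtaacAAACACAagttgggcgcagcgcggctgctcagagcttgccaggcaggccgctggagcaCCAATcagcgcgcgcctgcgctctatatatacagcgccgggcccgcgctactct
H4c9: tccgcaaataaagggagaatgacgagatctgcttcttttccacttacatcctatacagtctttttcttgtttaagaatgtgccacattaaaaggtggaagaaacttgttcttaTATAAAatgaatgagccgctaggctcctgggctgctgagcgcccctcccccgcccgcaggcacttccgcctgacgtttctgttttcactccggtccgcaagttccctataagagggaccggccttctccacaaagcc
H2ac8-H2bc8: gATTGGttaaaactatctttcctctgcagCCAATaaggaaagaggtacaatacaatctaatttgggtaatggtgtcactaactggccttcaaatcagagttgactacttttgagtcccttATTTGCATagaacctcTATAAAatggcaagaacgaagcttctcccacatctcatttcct

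The values are those of the authors' deposited tables, which give each gene 1 log2 ratio (transfected over control) and 1 score between 0 and 1. No values of single libraries were used, so the ratios carry no replicate error, test or p-value, depth is unknown, and levels cannot be compared between genes. How the score was made is not stated, and it cannot be read as a p-value; genes at 0.8 or more are called scored. Jag1, whose intracellular part is JICD1, did not rise with the first label. It had a deposited log2 ratio of -1.39 (score 0.759) in the libraries labelled JICD1, and 1.36 (score 0.819) in the NICD1 libraries. Each ratio is for the whole gene, and how many of its reads came from the construct is not given. The label itself was therefore not tested. Notch1, whose intracellular part is NICD1, was above 0 in both of the authors' deposited tables, with 1.33 (score 0.735) for JICD1 and 1.77 (score 0.815) for NICD1, so it does not single out the NICD1 libraries. Cdkn2a, the gene of the deleted locus, had no JICD1 ratio. For NICD1 it had 7.59 (score 0.827) in the authors' deposited table, with the control at the floor. Reads of this gene in the NICD1 libraries are not what the genotype label alone would lead one to expect. Which exons those reads covered is not given, so the ratio does not test the deletion itself. Directions for JICD1 below are therefore those of the libraries labelled JICD1. Some ratios have a group at a common floor value, inferred from the score, and their size then depends on that floor. Among the members this applied to 16: the control was at the floor for 4 by the JICD1 ratios and 5 by the NICD1 ratios, the libraries labelled JICD1 for 5 and the NICD1 libraries for 8.

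Of the astrocyte marker list, 9 of 10 genes had ratios in both of the authors' deposited tables, with medians of -0.84 for JICD1 and -0.72 for NICD1. Of the 9, 3 lay above 0 for JICD1 and 2 for NICD1. Their ratios ran from -3.88 for JICD1 and -2.30 for NICD1 in Clu to 0.79 for JICD1 and 2.98 for NICD1 in Slc1a2 in the authors' deposited tables, the last with the control at the floor. The fibroblast and pericyte list had medians of -2.27 for JICD1 and -1.54 for NICD1 in the authors' deposited tables, the microglia list -1.70 and 0.88, the neuron list 0.31 and 3.35, the oligodendrocyte list 0.31 and 0.40 and the endothelial list -0.07 and 1.24. These lists had 4 to 6 measured genes each, and some of their medians cover genes of opposite sign. In the neuron list 2 of 4 genes lay above 0 for JICD1 and 3 of 4 for NICD1. The neuron ratios ran from -2.84 to 3.02 for JICD1 and from -3.67 to 3.96 for NICD1 in the authors' deposited tables. The part of these lists in the histone ratios was not tested.

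As a group the histone genes were higher in the libraries labelled JICD1 and lower in the NICD1 libraries, each against the same control libraries. For JICD1 over control the median log2 ratio of 58 members was 0.64, against 0.05 over all 18971 genes, and 38 of 58 members (65.5%) lay above 0, against a background of 54.5%. A ratio of 1 or more, a doubling, was given to 22 of 58 members (37.9%), against 14.5% of all genes, and a ratio of -1 or less to 6 (10.3%), against 14.4%. For NICD1 over control the median of 58 members was -0.88, against -0.02 over all 19287 genes, and 18 of 58 (31.0%) lay above 0, against 48.5%. Here 10 members (17.2%) lay at 1 or more, against 16.6% of all genes, and 26 (44.8%) at -1 or less, against 12.1%. The high end in the NICD1 table is thus a share near that of all genes.

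Few of these ratios were scored. For JICD1 over control 2 of 58 members (3.45%) reached a score of 0.8, against 2.81% of all genes, a share near the background. For NICD1 over control 0 of 58 members did, against 2.61% of all genes, and no replicated test stands behind this count. The scored pair were H1f2 and H2bc4, each with a score of 0.886. The nearest members below the threshold in the authors' deposited JICD1 table were H2bc21 with a score of 0.719, H4c9 with 0.682 and H3c8 with 0.648. The highest scores in the authors' deposited NICD1 table were those of H2ac24 (0.755, log2 ratio -0.68), H2ac15 (0.717, log2 ratio -0.70) and H2bc4 (0.699). For NICD1 those highest in score were thus not those with the largest ratios. For JICD1 the scored pair had the largest ratios among members away from the floor, and the larger ratios were at or near it. Several ratios beyond 3 in size had scores under 0.5.

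**Figure D1:**
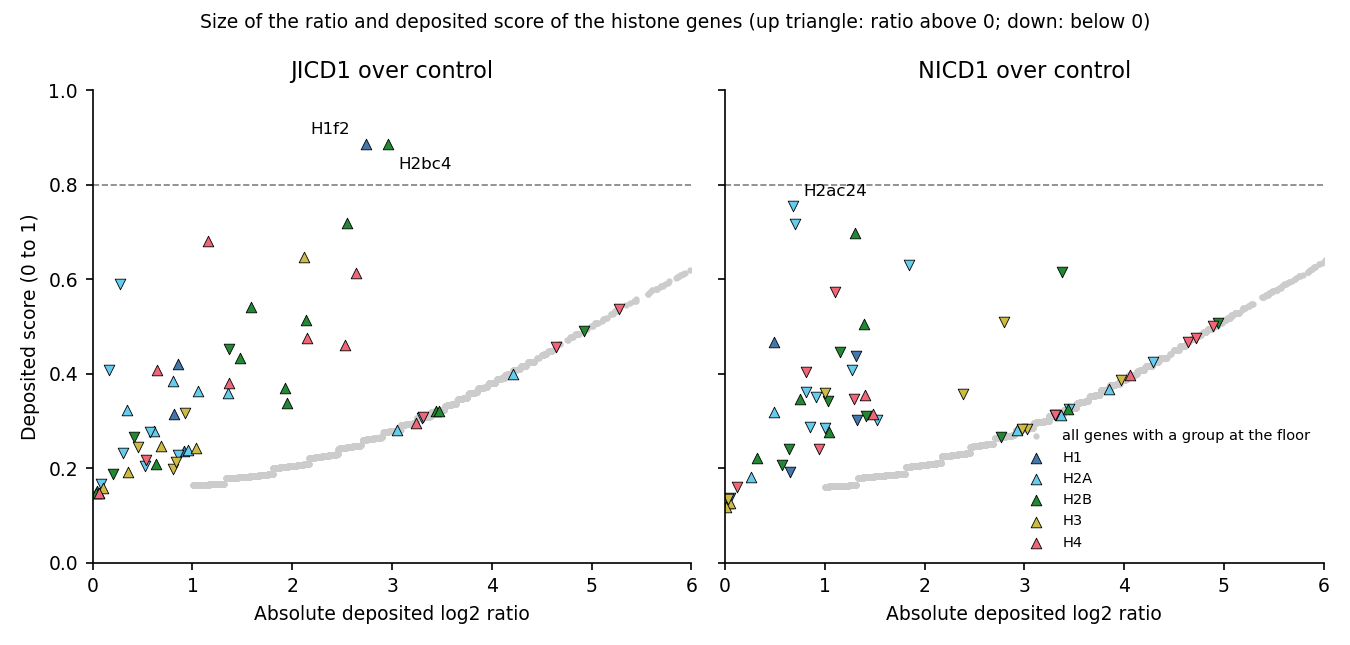
Absolute deposited log2 ratio (horizontal axis) against the deposited score (vertical axis) of the histone genes, for JICD1 (left panel) and NICD1 (right panel) over control, with up triangles for ratios above 0 and down triangles for ratios below 0. Grey points are all genes inferred to have a group at the floor, the dashed line is the score of 0.8, and H1f2 and H2bc4 at 0.886 in the JICD1 panel are the histone genes above it.

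The H1 genes encode the linker histones that bind DNA where it enters and leaves the nucleosome. All 5 measured H1 genes lay above 0 in the JICD1 table, with a median of 0.86, and 4 of 5 below 0 in the NICD1 table, with a median of -0.66. Among all genes 54.5% lay above 0 for JICD1 and 48.5% for NICD1. H1f2 was 6.69-fold higher in the libraries labelled JICD1 than in control in the authors' deposited table (log2 ratio 2.74), and 1.40-fold higher in the NICD1 libraries (0.49, score 0.468). H1f4 had 0.86 for JICD1 and -1.31 for NICD1 in the authors' deposited tables, and H1f3 had 0.91 and -0.66. H1f1 had 0.82 for JICD1 and -0.05 for NICD1 there, and H1f5 had 0.06 and -1.32. No H1 gene had a group at the floor. The scores of H1f3 were 0.237 for JICD1 and 0.192 for NICD1 in the authors' deposited tables.

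H2A and H2B form the dimers on the outer faces of the nucleosome core, and the 2 classes differed in the JICD1 table. The 16 measured H2B genes had a median of 1.53, with 12 above 0 and 9 at 1 or more, while the 16 measured H2A genes had a median of 0.13, with 8 above and 8 below 0. Among all genes 54.5% lay above 0 and 14.5% at 1 or more, so the H2A count above 0 was near that share. Over members with mostly unique sequence the medians were 1.93 for H2B and 1.08 for H2A. H2bc4 was 7.76-fold higher in the libraries labelled JICD1 in the authors' deposited table (log2 ratio 2.96) and 2.46-fold higher in the NICD1 libraries (1.30). H2bc21 had 2.55 for JICD1 and 1.40 for NICD1 in the authors' deposited tables, the same direction in both. H2bc8 had 2.13 for JICD1 and -0.57 for NICD1 there, H2bc9 had 1.48 and -1.42, and H2bc6 had 1.59 and 0.32. The pseudogene H2bu1-ps had 1.93 for JICD1 and 0.03 for NICD1 in the authors' deposited tables. H2bc11 lay below 0 in both, at -1.36 for JICD1 and -3.38 for NICD1, with scores of 0.452 and 0.615 in the authors' deposited tables.

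The lowest H2B ratio for JICD1 in the authors' deposited table was that of H2bc14, -4.93, with the libraries labelled JICD1 at the floor, and its NICD1 ratio was -0.64. The highest was H2bc15 at 3.47, a gene listed in the authors' deposited JICD1 table only, with the control at the floor. H2bc1, the testis H2B gene, had 3.44 in both of the authors' deposited tables, again with the control at the floor. These 3 ratios show which group was listed at the floor and give no fold.

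For NICD1 the 15 measured H2B genes had a median of -0.57, with 7 above and 8 below 0, and the 17 measured H2A genes one of -0.85, with 5 above and 12 below 0. The share of all genes above 0 was 48.5%, and the H2B count was near it. H2ac8 had 0.34 for JICD1 and -1.84 for NICD1 in the authors' deposited tables, with a NICD1 score of 0.631. H2ac11 had -0.58 for JICD1 and -1.27 for NICD1 there, and H2ac12 had -0.53 and -1.52. H2ac6 was above 0 in both, with 1.36 for JICD1 and 0.26 for NICD1 in the authors' deposited tables. The testis H2A gene H2ac1 had the lowest H2A ratio for NICD1, -4.29, within 0.01 of the floor curve, and -0.86 for JICD1 in the authors' deposited tables. The lowest for JICD1 was H2ac22 at -3.30 in both of the authors' deposited tables, with both transfected groups at the floor. H2ac20 had 3.05 for JICD1 and 3.85 for NICD1 in the authors' deposited tables, with the control at the floor in each. H2ac21, at 4.21, was listed in the authors' deposited JICD1 table only, within 0.01 of the floor curve. H2ac7 at 2.92 and the pseudogene H2ac14 at 3.37 were listed in the authors' deposited NICD1 table only, with the control at the floor.

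H3 and H4 form the tetramer at the centre of the nucleosome. The 9 H3 genes had a median of 0.10 for JICD1, with 5 above 0, and of -2.38 for NICD1, with 7 below 0 and 6 at -1 or less. For JICD1 54.5% of all genes lay above 0, a share near that of the H3 genes. For NICD1 48.5% of all genes lay above 0 and 12.1% at -1 or less. H3c8 was the highest H3 gene for JICD1 at 2.12, and was at -0.03 for NICD1 in the authors' deposited tables. H3c1 was the lowest for JICD1 at -0.92 and had -2.79 for NICD1 (score 0.509) in the authors' deposited tables. H3c7 had 0.68 for JICD1 and -2.38 for NICD1 there, and H3c6 had 0.35 and 0.01. H3c2 went the other way, with -0.81 for JICD1 and 0.05 for NICD1 in the authors' deposited tables. H3c10 was the lowest for NICD1, at -3.97 by the authors' deposited table, and had the NICD1 libraries at the floor, as they were for H3c11 and H3c15. Without members that have a group at the floor the H3 median for NICD1 was -0.52.

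The 12 H4 genes had a median of 0.90 for JICD1, with 8 above 0 and 6 at 1 or more, and of -1.02 for NICD1, with 9 below 0. Among all genes 54.5% lay above 0 and 14.5% at 1 or more for JICD1, and 48.5% lay above 0 for NICD1. H4c9, the H4 gene with the highest score, had 1.16 for JICD1 and -1.10 for NICD1 (score 0.574) in the authors' deposited tables. H4c11 had 2.64 for JICD1 and -0.94 for NICD1 there, and H4c4 had 0.64 and -0.82. H4c8, with 2.53 for JICD1 and 1.49 for NICD1, and H4f16, with 2.15 and 1.40, were above 1 in both of the authors' deposited tables. H4c3 had the lowest H4 ratio for NICD1, -4.89, and -0.54 for JICD1 in the authors' deposited tables. H4c2 had the lowest for JICD1, -5.27 with the libraries labelled JICD1 at the floor, and -1.29 for NICD1 in the authors' deposited tables. H4c1 had the highest ratio of the class in both of the authors' deposited tables, 3.24 for JICD1 and 4.06 for NICD1, with the control at the floor. H4c6 and H4c12 had both transfected groups at the floor.

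**Figure D2:**
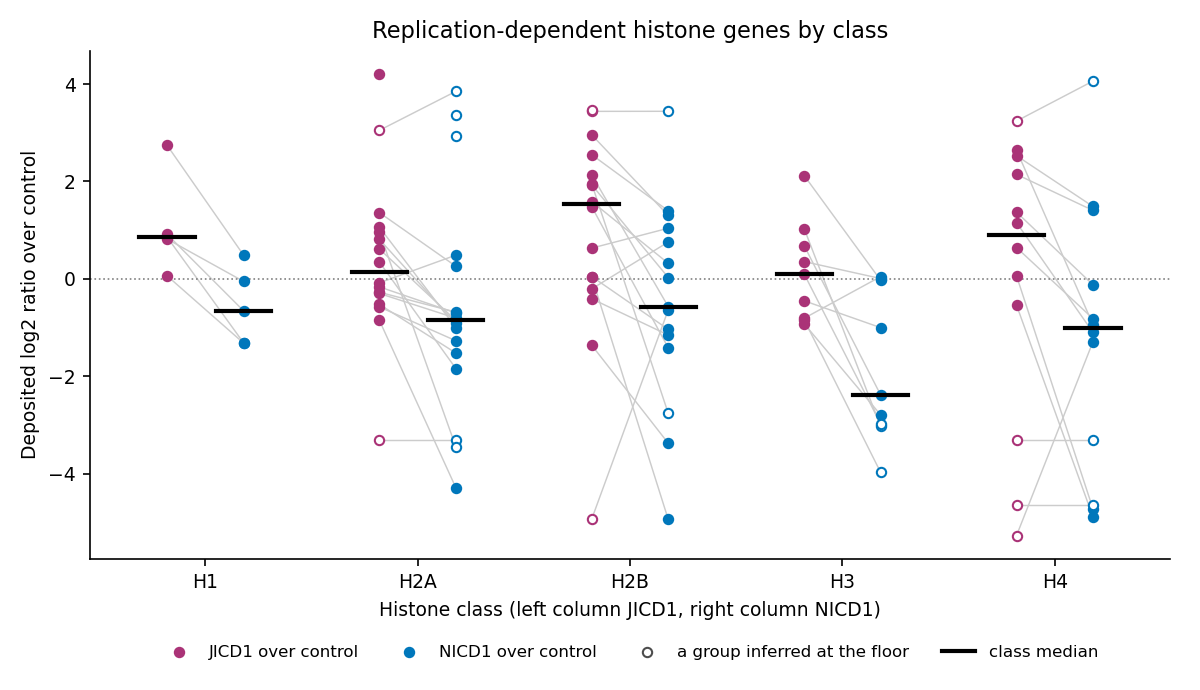
Deposited log2 ratio over control (vertical axis) of each member by histone class (horizontal axis), with JICD1 in the left and NICD1 in the right column of each class, grey lines joining a gene's ratios and black bars at the class medians. Open circles have a group inferred at the floor; the JICD1 median lies above the NICD1 median in each class, from 0.13 against -0.85 in H2A to 0.10 against -2.38 in H3.

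The difference of the deposited log2 ratios sets JICD1 against NICD1, and the control they share drops out of it. Of 56 members with both ratios, 44 (78.6%) had a difference above 0, against 52.5% of all 18182 genes with both. A difference of 1 or more was found for 34 (60.7%), against 10.6% of all genes, and one of -1 or less for 2 (3.57%), against 13.6%. The median difference was 1.42 over the members and 0.04 over all genes. By class the median difference was 1.57 in H1, 1.00 in H2A, 1.27 in H2B, 2.15 in H3 and 1.25 in H4. Without members that have a group at the floor it was 1.21 in H3 and 1.87 in H4, so the order of the classes depends on those members.

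The direction was the same without members at the floor. Of the 43 members with both ratios and no group at the floor, 39 had a difference above 0, 29 one of 1 or more and 0 one of -1 or less, with a median of 1.47. The shares of all genes were not computed under this exclusion. With genes at the floor kept they were 52.5%, 10.6% and 13.6%, in the same order. The 4 members below 0 were H2bc12 (-0.96), H3c2 (-0.86), H2ac23 (-0.57) and H2bu2 (-0.41), as differences of ratios of the authors' deposited tables. The 2 at -1 or less among all members were H2bc14 (-4.29) and H4c2 (-3.98), both with the libraries labelled JICD1 at the floor in the authors' deposited table. With every member within 0.01 of the floor curve left out, 39 remained, with medians of 0.68 for JICD1, -0.70 for NICD1 and 1.38 for the difference.

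The 5 largest differences came from members close to the floor in the NICD1 libraries. They were H2bc13 (0.04 for JICD1 and -4.94 for NICD1), H4c18 (0.06 and -4.72), H2bc22 (1.95 and -2.76), H2af-ps2 (0.96 and -3.45) and H4c3 (-0.54 and -4.89) in the authors' deposited tables. The NICD1 libraries were called at the floor for H2bc22 and H2af-ps2, and the scores of the others, 0.475 to 0.507, are close to the floor curve. Among members more than 0.01 from the floor curve the largest differences were 3.58 for H4c11, 3.06 for H3c7, 2.90 for H2bc9, 2.70 for H2bc8, 2.26 for H4c9, 2.25 for H1f2, 2.19 for H2ac8 and 2.17 for H1f4, from the authors' deposited tables.

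**Figure D3:**
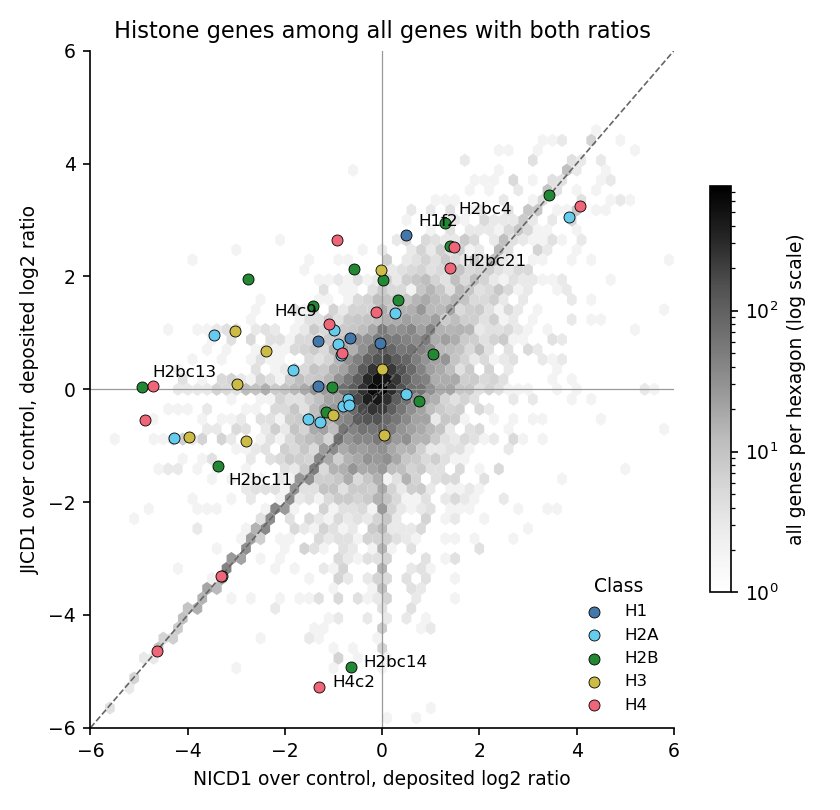
Deposited log2 ratio for JICD1 over control (vertical axis) against that for NICD1 over control (horizontal axis), with histone genes coloured by class over all genes with both ratios within 6 of 0 (grey hexagons, log colour scale). Most coloured points lie above the dashed line of equal ratios, 44 of 56 having a difference above 0; H2bc14 and H4c2 stand apart at the bottom.

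The annotated length of the transcripts went along with the JICD1 ratio. The members were split at 200 annotated bases past the stop codon, a limit set after the ratios were known, which gave 19 long and 38 short models and 3 with no stop codon. Some short models, such as those of H1f5, H2bc13 and H3c10, have 0 annotated bases past the stop codon, so their true length past it is unknown. The 19 long ones had a median of 1.16 for JICD1, with 18 above 0 and 10 at 1 or more, and the exception below 0 was H4c3. Of all genes, 54.5% lay above 0 and 14.5% at 1 or more for JICD1, and 48.5% lay above 0 for NICD1. The 37 short ones with a JICD1 ratio had a median of -0.08, with 18 above and 19 below 0. For NICD1 the medians were -0.66 for the long and -1.02 for the short models, with 8 of 19 and 8 of 36 above 0. The difference had medians of 1.65 for the long and 0.87 for the short models. On either side of the limit, H2bu2 has 213 bases past the stop codon and H2bc8 has 200. H1f2, H2bc4 and H2bc21, with the 3 highest JICD1 scores, have 880, 742 and 2192 bases.

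Sequence shared between members moved with this split. For each member the share of its 50-base stretches found in no other gene's GENCODE transcripts was counted, since reads from shared stretches cannot be assigned to 1 gene. The median share was 53.6%, from 6.08% in H3c10 to 100% in H1f1, H1f5 and H2bc21. H2ac24 and H2ac15, which had the highest NICD1 scores, had shares of 6.93% and 47.7%. The 34 members with a JICD1 ratio and at least 50% unique stretches had a median of 1.26 for JICD1, and the 33 such members with a NICD1 ratio had medians of -0.66 for NICD1 and 1.49 for the difference. The mostly shared ones had medians of -0.19 for JICD1 (24 members), -1.15 for NICD1 (25 members) and 0.74 for the difference (23 members). Of the 19 long models 17 were mostly unique, with a JICD1 median of 1.36, and the 16 short but mostly unique ones had one of 0.58. How the authors' counting treated shared reads, and whether the RNA was selected for poly(A), are not given in the sources used here, and the part of either in the ratios was not tested.

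**Figure D4:**
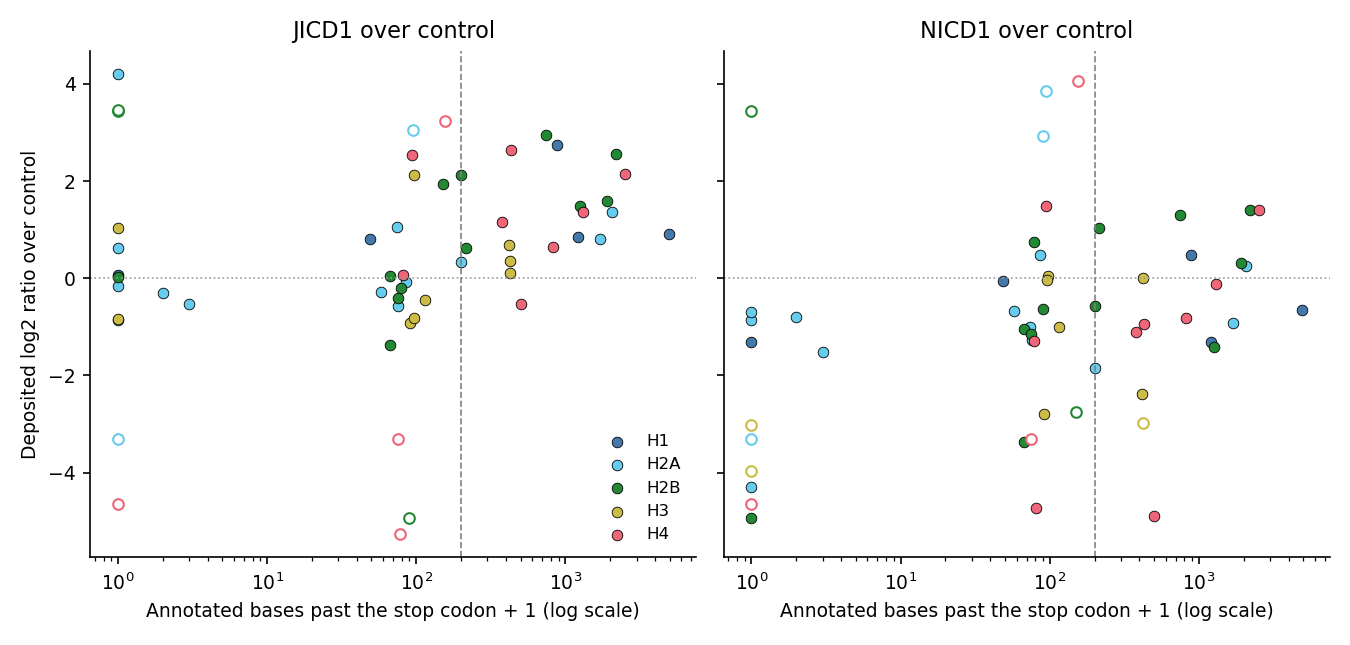
Deposited log2 ratio over control (vertical axis) against annotated bases past the stop codon plus 1 (horizontal axis, log scale) for JICD1 (left panel) and NICD1 (right panel), coloured by class, with open circles for a group at the floor and a dashed line at 200 bases. Right of the line 18 of 19 members lie above 0 in the JICD1 panel and 8 of 19 in the NICD1 panel, against 54.5% and 48.5% of all genes.

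Genes that share a promoter region did not always have ratios of the same sign. There were 12 head-to-head pairs of an H2A and an H2B gene with starts within 500 bases. Both ratios had the same sign in 7 of 10 pairs for JICD1 and in 6 of 11 for NICD1. Of all members, 65.5% lay above 0 for JICD1 and 31.0% for NICD1, so unrelated members would often share a sign too. That share was not computed. The median absolute difference between the partners was 1.36 for JICD1 and 2.28 for NICD1. Each of the 3 JICD1 pairs of opposite sign held a member with a group at the floor. In the 6 pairs without one, the sign was shared in 6 of 6 for JICD1, with a median absolute difference of 0.95, and in 4 of 6 for NICD1, with 1.69. These 6 include H2ac13 at 0.61 and H2bc13 at 0.04 for JICD1 in the authors' deposited table. In the pair shown above, H2ac8 had 0.34 for JICD1 and -1.84 for NICD1, and H2bc8 had 2.13 and -0.57 in the authors' deposited tables. H2ac6, at 1.36 for JICD1 and 0.26 for NICD1, and H2bc4, at 2.96 and 1.30, were above 0 together in both of the authors' deposited tables. H2ac1, at -0.86 for JICD1 and -4.29 for NICD1, and H2bc1, at 3.44 in both, took opposite signs in the authors' deposited tables; the control was at the floor for H2bc1, and the NICD1 ratio of H2ac1 was within 0.01 of the floor curve.

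By gene order on GRCm38, 51 members lie on chromosome 13, 5 on chromosome 3, 3 on chromosome 11 and 1 on chromosome 6. Gaps above 1 Mb split those of chromosome 13 into a first run of 20 genes with a JICD1 ratio, a second of 28 and H2af-ps2 alone. The first run had medians of -0.12 for JICD1, -1.29 for NICD1 and 1.38 for the difference, and the second had 0.75, -0.81 and 1.36. All 5 members of chromosome 3 (H2ac20, H2ac21, H2bc21, H3c15 and H4c14) were above 0 for JICD1, against 54.5% of all genes. Their median was 2.55, and the 4 with a NICD1 ratio had a median of 0.64. H2ac20 had the control at the floor in both comparisons, and H2ac21 lay within 0.01 of the floor curve. For H3c15 the NICD1 libraries were at the floor, so these medians rest in part on floor values.

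**Figure D5:**
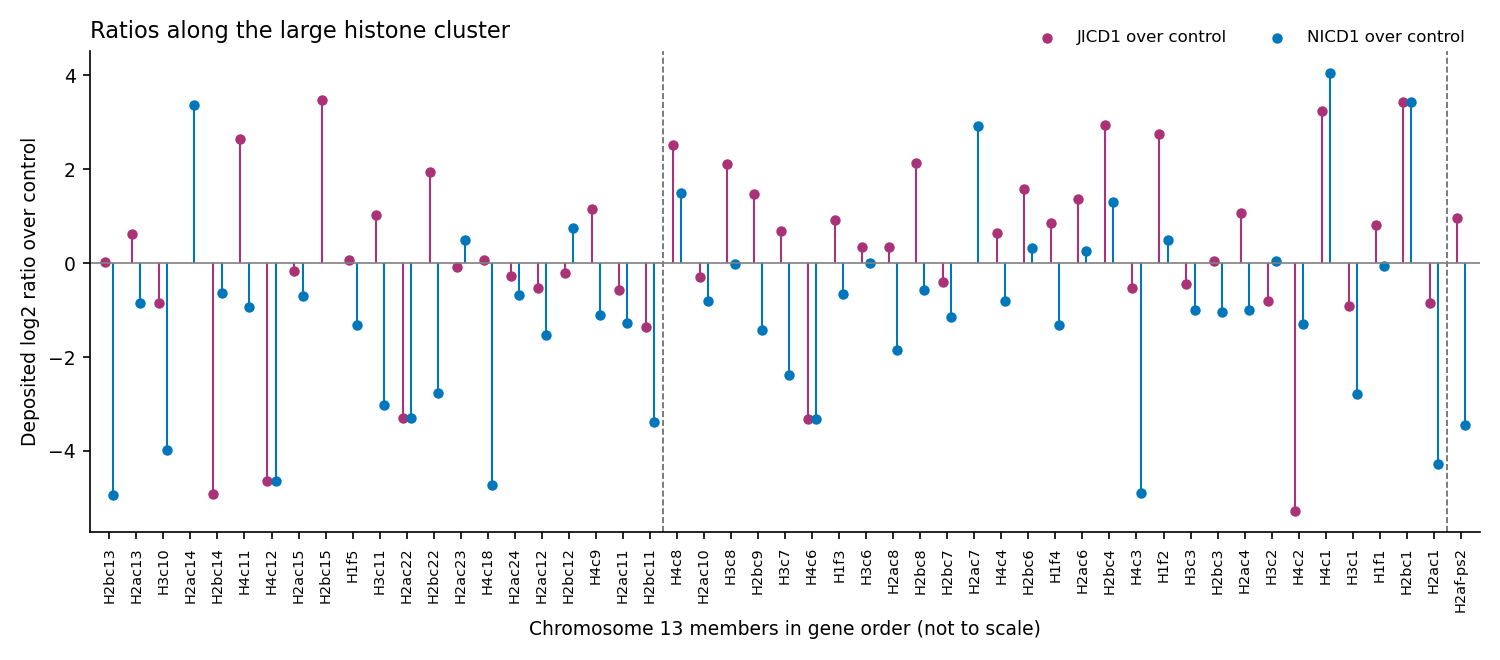
Deposited log2 ratio over control (vertical axis) of the chromosome 13 members in gene order (horizontal axis, not to scale), with JICD1 left of NICD1 for each gene and dashed lines at gaps above 1 Mb. High and low ratios are interspersed along both long runs, whose JICD1 medians are -0.12 and 0.75.

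Genes that make and process histone mRNA, or carry histone proteins, had list medians close to 0. The 20 genes of histone transcription and 3′ processing had medians of 0.03 for JICD1, with 12 above 0, and -0.11 for NICD1, with 5 above 0. Slbp, the stem-loop binding protein, had -0.17 for JICD1 and -0.35 for NICD1 in the authors' deposited tables, and Npat had 0.04 and -0.22. Cpsf2, which encodes the partner of the cutting enzyme in the processing complex, was the one scored gene of this list, with 1.09 for JICD1 (score 0.807) and 0.78 for NICD1 (score 0.756) in the authors' deposited tables. The 17 histone chaperones had medians of 0.08 for JICD1 and -0.03 for NICD1, with no scored gene. Supt16, a subunit of the chaperone FACT, had 0.08 for JICD1 and -0.65 for NICD1 in the authors' deposited tables.

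The histone genes listed as replication-independent had medians of smaller size than those of the members. With H2bu2 and H4f16 left out, which the list shares with the members, the 12 measured replication-independent histone genes had medians of 0.11 for JICD1 and -0.05 for NICD1, with no scored gene. Their ratios ran from -0.69 to 1.17 for JICD1 and from -0.81 to 0.51 for NICD1 in the authors' deposited tables. H2az1, a variant placed at promoters, had 0.82 for JICD1 and 0.07 for NICD1 there, and H3f3b, a gene for the variant H3.3, had -0.32 and -0.17. H1f0, a linker histone of non-dividing cells, had -0.01 for JICD1 and -0.81 for NICD1 in the authors' deposited tables. H2ax, the variant phosphorylated at DNA breaks, had 0.50 for JICD1 and -0.60 for NICD1 there. H1f10, another linker histone, had 0.36 and -0.69 in the authors' deposited tables.

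S-phase and mitosis genes show how the other genes of dividing cells stood. The 24 S-phase genes, which share Slbp and Mcm2 with the lists above, had medians of 0.08 for JICD1, with 16 above 0, and -0.11 for NICD1, with 7 above 0. Their ratios ran from -0.19 to 0.98 for JICD1 and from -0.39 to 0.88 for NICD1 in the authors' deposited tables, so none reached 1 in either direction. The 16 mitosis genes had medians of 0.11 for JICD1, with 14 above 0, and -0.12 for NICD1, with 4 above 0. Neither list had a scored gene. The difference of JICD1 over NICD1 was above 0 in 22 of 24 S-phase genes, 12 of 16 mitosis genes, 17 of 20 processing genes, 11 of 17 chaperones and 9 of 12 replication-independent histone genes. Over all genes with both ratios the share above 0 was 52.5%. The direction was thus shared with these lists, and the size was not. The median differences of the lists were 0.18, 0.33, 0.17, 0.19 and 0.38, in the same order, against 1.42 over the members. None of these lists had a gene at the floor, while 16 members did, and without those members the median was 1.47. Levels cannot be compared between genes, so the part of level in this contrast was not tested. The 6 cell cycle inhibitors with both ratios had medians of 0.54 for JICD1 and 0.07 for NICD1. Of these, Cdkn1a, which encodes p21, was scored in both of the authors' deposited tables, with 2.35 for JICD1 (score 0.889) and 1.57 for NICD1 (score 0.850). Cdkn2b, the neighbour of Cdkn2a, had 1.81 for JICD1 and 11.24 for NICD1 (score 0.991) in the authors' deposited tables. The control was at the floor by its JICD1 ratio, and both tables share that control, so neither ratio gives a fold.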

How the data were processed

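RNA-seq ratios of 9 libraries, 3 a group, were used. The submitters' processing notes name Bowtie2, BWA and mm9, without version or role; no source used here gives the counting method. The 2 deposited tables give 1 log2 ratio of transfected over control per gene, and a score called Probability, per the file headers. The planned test needed values per library; with 1 ratio per gene, no test, standard error or left-out library was possible. The members and lists were chosen with earlier results of these data known. The score threshold of 0.8, the limit of 200 bases past the stop codon and the stretch length of 50 bases were also set with results known; no source used here gives the read length. The tables held 0 unused numeric columns.

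NCBI and GENCODE vM21 annotation of GRCm38 named 19762 of 20076 genes. That build is not mm9 and served for names, gene order and sequences. A floor was inferred from 694 genes with equal negative ratios in both tables (tolerance 1e-06; 1 gene had equal positive ratios). A group was called at the floor where a ratio of 1 or more in size lay within 0.002 of their score curve (0.01 above a size of 6). Members were named by rule: the highest and lowest ratio per class and comparison, scored members, every H1 gene, members in only 1 table, the 5 largest differences, and up to 4 scored genes a list with Slbp, Npat, H2az1, H1f0 and H3f3b; the others named were chosen after their values were seen. Python 3.11.15, pandas 2.3.3 and numpy 2.4.6 were used.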

Additional observations from a re-analysis of the deposited data

How the results depend on the processing

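No paired analysis was possible because each gene has 1 ratio per table and no value per library, and no library could be left out for the same reason. Counts of scored members depend on the rule. For JICD1 over control the 2 members became 0 at a score of 0.9 (0.659% of all genes), 28 at an absolute log2 ratio of 1 (48.3%, against 28.9% of all genes) and 18 at 2 (31%, against 14.3%). For NICD1 over control the 0 members became 2 at a score of 0.7 (3.45%, against 7.82% of all genes), 36 at an absolute log2 ratio of 1 (62.1%, against 28.7%) and 20 at 2 (34.5%, against 15.5%). The overall medians kept their sign under every alternative run: 0.34 to 2.13 for JICD1, -1.47 to -0.66 for NICD1 and 1.27 to 2.08 for the difference. The JICD1 median was 2.13 over members with a score of at least 0.5, 0.34 over the large cluster alone, 1.26 over members with mostly unique sequence and 0.35 by current symbol only, the last 2 being alternatives chosen after seeing the data. The NICD1 median was -1.47 over members with a score of at least 0.5. The difference was 2.08 over members with a score of at least 0.5, and 1.72 with the tables' own symbols only. The family was selected on these scores and ratios, so medians over members with a score of at least 0.5 give no separate check.

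Class medians were less stable. The H2A median for JICD1, 0.13, turned to -0.082 over members in both tables and without members near the floor curve, to -0.28 at a score of at least 0.5, and to -0.12 by current symbol only; it was 1.08 over mostly unique members and 0.39 as a mean. The H3 median for JICD1, 0.10, turned to -0.048 without members near the floor curve and to -0.45 over mostly unique members. The H2B median for NICD1, -0.57, turned to 0.027 in both of these settings, and the H4 median for NICD1, -1.02, to 0.15 with the tables' own symbols only. The H4 median for JICD1, 0.90, kept its sign but was 0.0021 as a mean and 1.76 without members near the floor curve. Members near the floor curve, mostly unique members and current symbols were alternatives chosen after seeing the data. The cause of these turns and shifts was not tested. Class medians of the difference kept their sign under all alternatives run. Depth is unknown, and a low level cannot be told from absence.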

Other observations

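Of the antisense genes annotated opposite histone genes of chromosome 3, 3 had ratios in both of the authors' deposited tables; none is a member. Gm20632, opposite Hist2h2aa2, had 1.68 for JICD1 and 1.06 for NICD1 in the authors' deposited tables. Gm20633, opposite Hist2h2aa1, had 1.17 and -0.22 there, and Gm20628, opposite Hist2h3b and Hist2h2bb, had 0.88 and -1.17. No source used here says whether reads were counted by strand, so reads of either strand cannot be told apart.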
